A study of Mus musculus with 9 samples.

Results

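The genes of TGF-beta, BMP and activin signalling were followed in PPTR cells, a mouse intrahepatic cholangiocarcinoma line, with and without a Cas9 cut in *Vcam1*, the gene of a cell adhesion molecule. The members were 43 rows picked by gene symbol from the 55276 rows of the count table. They comprise 11 ligand subunits, 12 receptors and co-receptors, 9 Smads and Smad corepressors, 4 Id factors, 4 secreted antagonists and 3 latent TGF-beta binding proteins. Of these, 41 passed the filter on low counts. *Inha* had no count in any library and *Bmpr1b* had at most 4, so that these 2 members were not tested.

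PPTR cells were grown from organoids of a liver cancer model with the genotype Prom1CreERT2; Ptenflx/flx; Tp53flx/flx; Rosa-ZsGreen, in which the *Prom1* promoter drives a tamoxifen-activated Cre, and all groups share these alleles. Control and clone groups were sequenced, with 3 libraries from different passages each: the control cells (Vcam1ctrl, labelled WT) and the lines Vcam1KO1 and Vcam1KO2, both made with a guide against exon 2 of *Vcam1* and each expanded from 1 cell. All were cultured in medium with serum and without added ligand. Since a line is 1 clone, an effect of the *Vcam1* cut and a property of that clone cannot be told apart, and the 3 libraries of a line measure only its own spread.

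Ligands of this family are secreted dimers that bind a pair of type II and a pair of type I receptor kinases. TGF-beta and activin receptors phosphorylate *Smad2* and *Smad3*, BMP receptors phosphorylate *Smad1*, *Smad5* and *Smad9*, and both kinds of Smad enter the nucleus with *Smad4*. TGF-beta is kept latent in the matrix by its propeptide and the latent TGF-beta binding proteins, activin is held by follistatin, and BMPs are held by noggin, gremlin and chordin. In the liver the pathway is known for its part in fibrosis, in biliary differentiation and in the growth arrest and mesenchymal change of epithelial tumour cells.

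*Vcam1* mRNA, which a cut in an exon need not remove, fell by 1.36 on the log2 scale in the 6 clone libraries (standard error 0.17, adjusted p = 2.1e-04). The paper reports that both clones had lost Vcam1 expression, as measured by quantitative RT-PCR and flow cytometry. All adjusted p values are from the quasi-likelihood fit of edgeR, by Benjamini-Hochberg over all tested genes, and 0.05 was the threshold. Since replicates are passages of one line, these p values measure only the spread between these libraries. The libraries held 53415907 to 125223073 counts. Within each clone, replicate 3 stood apart from the others: the chi-square per degree of freedom between counts was 36.0 for replicates 1 and 2 of Vcam1KO1 against 240.3 and 275 for the pairs with replicate 3, and 35.8 against 166 and 113 in Vcam1KO2, while the control pairs gave 84.4, 118 and 169 and so spread as widely as the latter. Of the 12 biliary markers examined, *Krt7*, *Krt8*, *Krt18*, *Krt19* and *Epcam* averaged under 1 CPM (counts scaled to a common library total, with TMM factors) in both clones. In all, 3 of the 12 averaged under 1 CPM in Vcam1ctrl, 8 in Vcam1KO1 and 9 in Vcam1KO2. Of the 10 tested, 7 fell and 1 rose over both clones, with a median log2 fold change of -8.48. The summed level of all 12 was 13569.5 to 15250.0 CPM in Vcam1ctrl, 10618 to 11078 in Vcam1KO1 and 7635 to 11082 in Vcam1KO2 libraries. In the clones that sum rests on the few markers that stayed above 1 CPM. The summed level of 10 hepatocyte markers was 253 to 449 CPM in Vcam1ctrl and at most 3.93 in either clone, while 7 of the 9 tested fibroblast and stellate cell markers rose over both clones (6 rose and 1 fell in Vcam1KO1, 7 rose in Vcam1KO2). The summed level of the 12 fibroblast and stellate cell markers was 431 to 837 CPM in Vcam1ctrl, 12563 to 15975 in Vcam1KO1 and 6769.8 to 9111 in Vcam1KO2 libraries, with *Lum*, *Thy1* and *Lrat* under 1 CPM in all groups. All 8 endothelial markers averaged under 1 CPM in every group, and so did at least 6 of the 8 haematopoietic markers. The part of these marker shifts in the results that follow was not tested, and in such bulk RNA fewer cells of a type and less RNA per cell cannot be told apart.

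Between Vcam1KO and Vcam1ctrl, 14 members rose and 14 fell, 28 of 41, where 43% of all 17672 tested genes were called (21.7% higher and 21.2% lower). The median log2 fold change was -0.05 over the tested members and 0.07 over all genes, so the members moved apart from one another rather than in 1 direction. The libraries of the 2 groups did not overlap for 25 of the 41 members, against 44.2% of all genes. In Vcam1KO1 alone 14 members rose and 19 fell, with 59.9% of all genes called (29.9% higher and 30.0% lower), and in Vcam1KO2 alone 15 rose and 18 fell, with 51.4% called (25.3% higher and 26.1% lower). Without Vcam1KO1 replicate 3, the numbers of members called were 30, 34 and 34. The clones were compared with the same 3 control libraries, and side by side 10 members rose in both (18.3% of all tested genes did), 14 fell in both (19.4% of all), 12 were called in 1 clone (32.0% of all), 3 went opposite ways (1.93% of all; *Bmp2*, *Acvr1* and *Nog*, the last near 0 counts) and 2, *Tgfb1* and *Smad2*, were called in neither (28.3% of all). The 12 called in 1 clone are 29.3% of the tested members, close to the share of all genes.

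**Figure D1:**
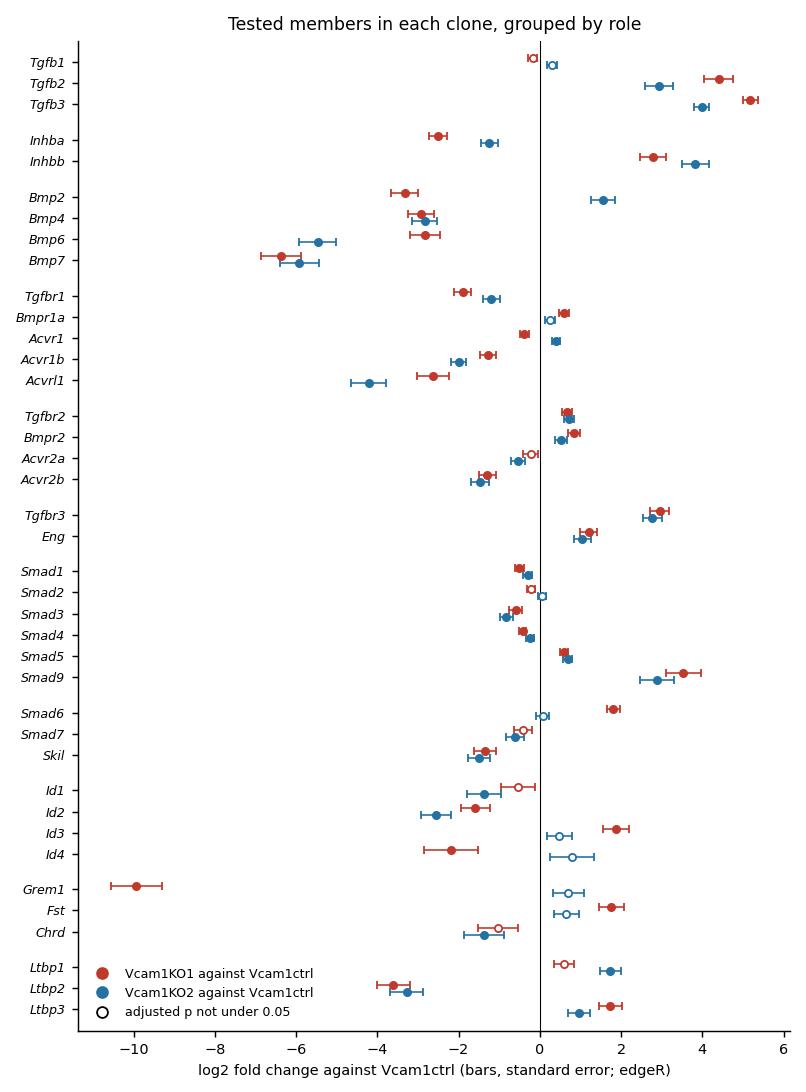
Log2 fold change of 39 tested members in Vcam1KO1 (red) and Vcam1KO2 (blue) against Vcam1ctrl, grouped by role from ligands at the top to latent TGF-beta binding proteins at the bottom. Points are edgeR estimates, bars standard errors and open points adjusted p values that missed the threshold of 0.05. *Nog* and *Bmp5*, with 3 counts or fewer in every control library, are left out, and *Grem1* in Vcam1KO1 lies farthest from 0, at -9.94.

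The TGF-beta ligands changed from a mostly *Tgfb1* supply in Vcam1ctrl to one in which *Tgfb2* and *Tgfb3* took a much larger share in both clones. The 3 genes encode isoforms that use the same receptors, *Tgfb2* with help of the co-receptor betaglycan. *Tgfb3*, on GRCm38 at chr12:86056745-86079041, stood at 3.95, 4.93 and 2.98 CPM in the Vcam1ctrl libraries, at 153, 141 and 135 in Vcam1KO1 and at 60.1, 64.0 and 62.0 in Vcam1KO2. The 3 groups did not overlap, and *Tgfb3* rose by 5.18 on the log2 scale in Vcam1KO1 (standard error 0.19, adjusted p = 8.1e-08) and by 3.98 in Vcam1KO2 (standard error 0.18, adjusted p = 3.1e-07).

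*Tgfb2*, at chr1:186622792-186705989, stood at 12.7, 10.0 and 11.5 CPM in Vcam1ctrl, at 171, 167 and 385 in Vcam1KO1 and at 103, 93.2 and 66.2 in Vcam1KO2. Every clone library lay above every control library, and Vcam1KO1 replicate 3 lay far above the other libraries of its group. The log2 fold change was 4.40 in Vcam1KO1 (standard error 0.36, adjusted p = 7.0e-06), or 3.89 without that replicate, and 2.94 in Vcam1KO2 (standard error 0.34, adjusted p = 7.7e-05). *Tgfb1* stood at 96.4, 79.0 and 90.1 CPM in Vcam1ctrl, at 76.1, 71.1 and 87.9 in Vcam1KO1 and at 104, 116 and 104 in Vcam1KO2. Its log2 fold change was -0.18 in Vcam1KO1 (standard error 0.12, adjusted p = 0.22) and 0.29 in Vcam1KO2 (standard error 0.12, adjusted p = 0.067). Neither passed the threshold, although 1 omission in each moved it past: control replicate 2 for Vcam1KO1 (adjusted p = 0.038) and Vcam1KO1 replicate 3 for Vcam1KO2 (adjusted p = 0.038).

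The isoforms were set against each other per length, as CPM per kb of annotated exon. Their summed level was 20.7 ± 1.82 CPM per kb (SD, n = 3) in Vcam1ctrl, 99.4 ± 21.3 in Vcam1KO1 and 54.9 ± 3.91 in Vcam1KO2. *Tgfb1* made up 84.8% of that sum in Vcam1ctrl, 15.9% in Vcam1KO1 and 39.1% in Vcam1KO2. With lengths from the longest transcript its share was 91.0%, 25.8% and 54.3%, so the order of the groups did not depend on the length used, while in Vcam1KO2 it decided whether *Tgfb1* held more or less than *Tgfb2* and *Tgfb3* together. In Vcam1KO1 *Tgfb3* (44.0% ± 10.1) and *Tgfb2* (40.2% ± 11.7) did not differ beyond their spread. No test was run on shares.

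The activin subunits exchanged places. *Inhba* encodes the beta A and *Inhbb* the beta B subunit, while *Inha* encodes the alpha subunit that turns an activin into an inhibin and had no count here. *Inhba* stood at 22.6, 33.0 and 19.5 CPM in Vcam1ctrl, at 4.46, 5.02 and 3.72 in Vcam1KO1 and at 11.7, 10.3 and 9.58 in Vcam1KO2. *Inhbb* stood at 2.25, 1.86 and 4.25 CPM in Vcam1ctrl, at 18.7, 23.5 and 16 in Vcam1KO1 and at 43.8, 45.2 and 30.6 in Vcam1KO2. No library of a clone overlapped with a control library for either gene. *Inhba* fell by 2.51 on the log2 scale in Vcam1KO1 (standard error 0.22, adjusted p = 1.2e-05) and by 1.25 in Vcam1KO2 (standard error 0.21, adjusted p = 9.3e-04), and *Inhbb* rose by 2.79 (standard error 0.32, adjusted p = 6.0e-05) and 3.83 (standard error 0.33, adjusted p = 1.3e-05). Per length, *Inhba* supplied 84.9% ± 8.60 of the subunit mRNA in Vcam1ctrl, 13.2% ± 0.660 in Vcam1KO1 and 15.2% ± 2.07 in Vcam1KO2 (SD, n = 3). Their sum was 4.57 ± 0.887 CPM per kb in Vcam1ctrl and 5.24 ± 0.993 in Vcam1KO1, within their spread, and 11 ± 2.02 in Vcam1KO2.

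Among the BMP ligands *Bmp4*, *Bmp6* and *Bmp7* fell in both clones, and *Bmp2* went opposite ways. *Bmp4* stood at 25.9, 21.2 and 43.1 CPM in Vcam1ctrl, at 3.19, 4.76 and 3.99 in Vcam1KO1 and at 4.46, 5.10 and 3.02 in Vcam1KO2. *Bmp7* stood at 9.69, 4.63 and 12 CPM in Vcam1ctrl and at no more than 0.188 CPM in any clone library. The fall was 2.88 on the log2 scale for *Bmp4* (standard error 0.25, adjusted p = 2.5e-05) and 6.13 for *Bmp7* (standard error 0.41, adjusted p = 5.5e-06) over both clones. *Bmp6*, a ligand known for its control of hepcidin, stood at 2.23 to 3.05 CPM in Vcam1ctrl, at 0.287 to 0.438 in Vcam1KO1 and at 0.0171 to 0.0848 in Vcam1KO2. It was thus low in both clones and lowest in Vcam1KO2, with log2 fold changes of -2.82 (standard error 0.37, adjusted p = 1.4e-04) and -5.47 (standard error 0.45, adjusted p = 9.8e-06).

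*Bmp2* stood at 13.3, 8.42 and 9.99 CPM in Vcam1ctrl, at 0.689, 0.918 and 1.56 in Vcam1KO1 and at 37.0, 32.2 and 23.6 in Vcam1KO2, so that the 3 groups did not overlap. Its log2 fold change was -3.33 in Vcam1KO1 (standard error 0.33, adjusted p = 2.4e-05) and 1.55 in Vcam1KO2 (standard error 0.30, adjusted p = 0.0019). The value over both clones, 0.60 (adjusted p = 0.72), describes neither of them. *Bmp5* was at 3 counts or fewer in every control library and at 3, 3 and 4 counts in Vcam1KO1, and reached 0.634, 0.665 and 1.01 CPM in Vcam1KO2. From the summed counts, 152 against 7, its level in Vcam1KO2 was 28.6 times that in Vcam1ctrl (95% exact interval 13.5 to 72.3, for counting error only). The call of *Bmp5* over both clones (adjusted p = 0.045) was lost without any one of the control libraries (adjusted p = 0.11 to 0.14). Per length the summed BMP mRNA was 19.2 ± 6.16 CPM per kb in Vcam1ctrl, 2.20 ± 0.407 in Vcam1KO1 and 10.8 ± 2.27 in Vcam1KO2 (SD, n = 3), of which *Bmp4* supplied 69.1%, 80.6% and 17.2% and *Bmp2* 16.3%, 13.4% and 80.4%.

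**Figure D2:**
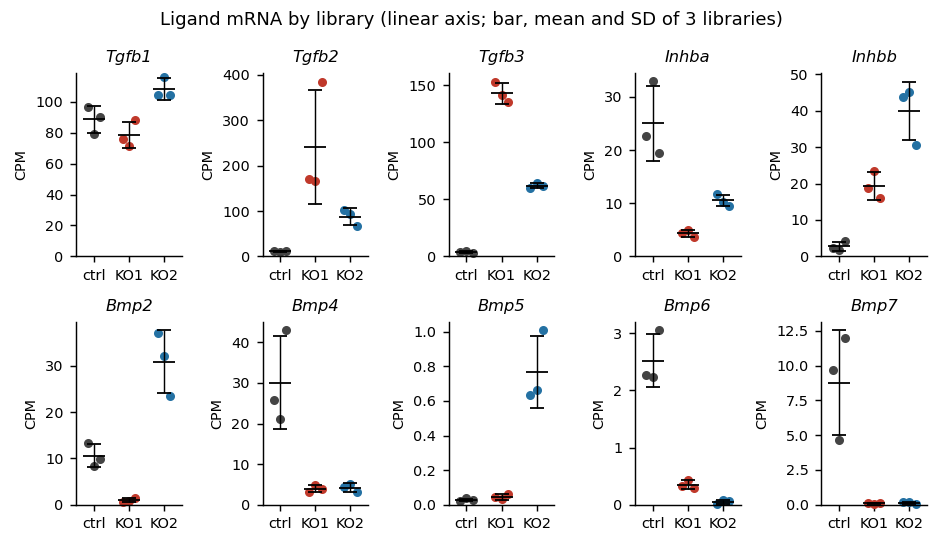
Level of each detected ligand gene in CPM (vertical axis, linear, from 0) in the 3 libraries of Vcam1ctrl, Vcam1KO1 and Vcam1KO2, with the mean and SD of each group as a bar. *Tgfb2*, *Tgfb3* and *Inhbb* lie higher in every clone library, *Inhba*, *Bmp4*, *Bmp6* and *Bmp7* lower, and *Bmp2* lies lowest in Vcam1KO1 and highest in Vcam1KO2.

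Of the 5 tested type I receptors, the kinases that phosphorylate Smads, 3 fell over both clones, while the type II receptors *Tgfbr2* and *Bmpr2* rose and *Acvr2b* fell. *Tgfbr1* (ALK5), the type I receptor of TGF-beta, stood at 72.0, 72.1 and 87.7 CPM in Vcam1ctrl, at 24.8, 22.5 and 14.7 in Vcam1KO1 and at 40.4, 32.3 and 28.4 in Vcam1KO2. *Tgfbr2*, its type II partner, stood at 136, 113 and 152 CPM in Vcam1ctrl, at 197, 229 and 213 in Vcam1KO1 and at 218, 218 and 223 in Vcam1KO2. Both pairs of groups were separate, in opposite directions. Over both clones *Tgfbr1* fell by 1.51 on the log2 scale (standard error 0.26, adjusted p = 0.0014) and *Tgfbr2* rose by 0.69 (standard error 0.12, adjusted p = 0.0014). Per length *Tgfbr1* was at 11.8 ± 1.38 CPM per kb beside 16.3 ± 2.34 of *Tgfbr2* in Vcam1ctrl, at 3.16 ± 0.811 beside 26.0 ± 1.98 in Vcam1KO1 and at 5.16 ± 0.938 beside 26.8 ± 0.355 in Vcam1KO2 (SD, n = 3).

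*Acvr1b* (ALK4), the type I receptor of activin, stood at 54.1, 54.7 and 84.5 CPM in Vcam1ctrl, at 27.9, 22.4 and 29.3 in Vcam1KO1 and at 15.4, 16.2 and 16.6 in Vcam1KO2, and fell by 1.59 on the log2 scale over both clones (standard error 0.25, adjusted p = 8.3e-04). *Acvrl1* (ALK1), best known from endothelium, fell from 3.62 to 6.98 CPM in Vcam1ctrl to 0.415 to 1.09 in Vcam1KO1 and 0.237 to 0.308 in Vcam1KO2, for a log2 fold change equal to -3.21 (standard error 0.53, adjusted p = 0.0011). The BMP type I receptors *Bmpr1a* (ALK3) and *Acvr1* (ALK2) moved less. *Bmpr1a* rose by 0.60 in Vcam1KO1 (standard error 0.12, adjusted p = 0.0018) and had a log2 fold change of 0.25 in Vcam1KO2 (adjusted p = 0.10, or 0.030 without Vcam1KO2 replicate 3). Its call over both clones, 0.44 (adjusted p = 0.040), was lost without any of the control libraries, any of the Vcam1KO1 libraries or Vcam1KO2 replicate 1, with adjusted p values of 0.054 to 0.12. *Acvr1* fell by 0.38 in Vcam1KO1 (standard error 0.10, adjusted p = 0.0076) and rose by 0.40 in Vcam1KO2 (standard error 0.10, adjusted p = 0.0064), a call lost with no filter on low counts (0.37, adjusted p = 0.058).

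Of the other type II receptors, *Bmpr2* rose from 39.5 to 51.0 CPM in Vcam1ctrl to 76.1 to 87.8 in Vcam1KO1 and 53.4 to 76.9 in Vcam1KO2, with log2 fold changes of 0.83 (adjusted p = 0.0011) and 0.51 (adjusted p = 0.018). The second call was lost without control replicate 2, Vcam1KO2 replicate 1 or Vcam1KO2 replicate 2 (adjusted p = 0.067, 0.086 and 0.051), and the call over both clones, 0.68 (adjusted p = 0.0098), without control replicate 2 (adjusted p = 0.053). The activin receptor *Acvr2b* fell from 2.84 to 3.41 CPM to 1.15 to 1.55 in Vcam1KO1 and 1.06 to 1.17 in Vcam1KO2, by 1.38 on the log2 scale over both (standard error 0.22, adjusted p = 8.4e-04). *Acvr2a*, at 15.4 to 16.8 CPM in Vcam1ctrl, was called lower in Vcam1KO2, by 0.54 (adjusted p = 0.030), and the call was lost without control replicate 1 or 3 or Vcam1KO2 replicate 2 or 3 (adjusted p = 0.056 to 0.076). Over both clones its log2 fold change was -0.38 (adjusted p = 0.13, or 0.032 without Vcam1KO1 replicate 3).

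Both co-receptors rose. *Tgfbr3*, or betaglycan, presents *Tgfb2* to the signalling receptors and also binds inhibin. It stood at 13.4, 7.38 and 10.0 CPM in Vcam1ctrl, at 64.6, 78.0 and 97.2 in Vcam1KO1 and at 72.3, 67.4 and 70.9 in Vcam1KO2. These groups were widely separate from the control and overlapped with each other, and the log2 fold change over both clones was 2.87 (standard error 0.23, adjusted p = 1.4e-05). *Eng*, or endoglin, rose from 1.06 to 1.38 CPM to 2.61 to 2.84 in Vcam1KO1 and 2.21 to 2.57 in Vcam1KO2, for a log2 fold change equal to 1.12 (standard error 0.23, adjusted p = 0.0035).

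**Figure D3:**
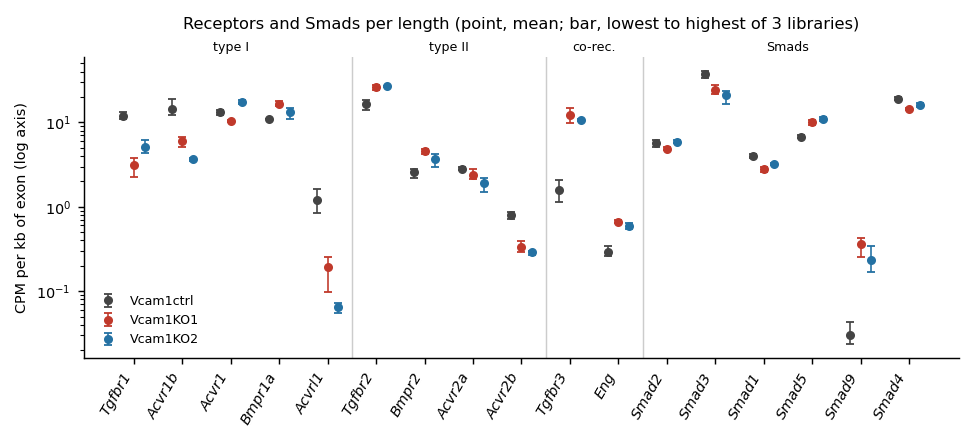
Receptors, co-receptors, receptor Smads and *Smad4* in CPM per kb of annotated exon (log axis). Points are the means of 3 libraries and bars run from the lowest to the highest, and *Tgfbr1*, *Acvr1b* and *Acvrl1* lie lower in both clones while *Tgfbr2*, *Tgfbr3*, *Smad5* and *Smad9* lie higher.

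The receptor Smads of the TGF-beta branch did not rise, and those of the BMP branch split. *Smad3* stood at 207, 184 and 224 CPM in Vcam1ctrl, at 119.5, 134 and 154 in Vcam1KO1 and at 130.2, 125 and 91.5 in Vcam1KO2, lower in every clone library. It fell by 0.71 on the log2 scale over both clones (standard error 0.15, adjusted p = 0.0052). *Smad2* lay between 40.8 and 54.6 CPM in all 9 libraries, with a log2 fold change of -0.07 (adjusted p = 0.69) and a 95% interval of -0.31 to 0.18. In Vcam1KO1 it was -0.21 (adjusted p = 0.10, or 0.022 without control replicate 2).

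On the BMP side *Smad5* rose from 48.2, 50 and 53.1 CPM in Vcam1ctrl to 79.2, 68.2 and 79.7 in Vcam1KO1 and 87.1, 78.1 and 76.5 in Vcam1KO2, by 0.63 on the log2 scale (standard error 0.10, adjusted p = 1.0e-03). *Smad9*, which encodes Smad8, rose from 0.231, 0.129 and 0.126 CPM to 2.26, 2.20 and 1.37 in Vcam1KO1 and 0.908, 0.976 and 1.85 in Vcam1KO2, by 3.27 (standard error 0.47, adjusted p = 5.2e-04). Even so it remained the lowest receptor Smad per length, at 0.362 ± 0.0925 CPM per kb in Vcam1KO1 beside 10.2 ± 0.874 of *Smad5* and 2.77 ± 0.204 of *Smad1* (SD, n = 3). *Smad1* and the shared partner *Smad4* fell a little, by 0.40 (adjusted p = 0.023) and 0.33 (adjusted p = 0.023) over both clones. Both calls were lost without control replicate 1 (adjusted p = 0.063 for each) or control replicate 3 (0.088 for each). In Vcam1KO1 alone they fell by 0.51 (adjusted p = 0.0028) and 0.42 (adjusted p = 0.0027), calls that kept their side whichever library was left out, and in Vcam1KO2 by 0.30 (adjusted p = 0.045) and 0.24 (adjusted p = 0.045), calls lost without any of 8 and any of 7 libraries, with adjusted p values up to 0.12 and 0.13.

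Of the inhibitors inside the cell *Smad6* rose in Vcam1KO1 and *Skil* fell in both clones. *Smad6*, which blocks BMP receptors, stood at 6.76, 6.88 and 7.92 CPM in Vcam1ctrl, at 24.6, 28.4 and 22.3 in Vcam1KO1 and at 6.53, 7.68 and 8.42 in Vcam1KO2. Only the Vcam1KO1 libraries stood clear of the control, with a log2 fold change equal to 1.80 (standard error 0.16, adjusted p = 1.2e-05) against 0.07 in Vcam1KO2 (standard error 0.16, adjusted p = 0.74), and the clones differed by 1.73 (standard error 0.16, adjusted p = 6.6e-05). *Skil*, which encodes the Smad corepressor SnoN, fell from 76.0, 62.0 and 72.9 CPM to 19.8, 26.2 and 37.1 in Vcam1KO1 and 33.3, 25.1 and 17 in Vcam1KO2, by 1.41 on the log2 scale (standard error 0.23, adjusted p = 0.0010). *Smad7*, which blocks TGF-beta receptors, stood at 31.3 to 44.9 CPM in Vcam1ctrl, 21.2 to 34.1 in Vcam1KO1 and 19.6 to 29.6 in Vcam1KO2. Its log2 fold change over both clones was -0.51 (adjusted p = 0.064), past the threshold without Vcam1KO1 replicate 2 or 3 (adjusted p = 0.034 and 0.047). Its call in Vcam1KO2, -0.62 (adjusted p = 0.039), was lost without control replicate 2 or 3 or Vcam1KO2 replicate 2 or 3 (adjusted p = 0.065 to 0.12).

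The Id genes, helix-loop-helix inhibitors that are classical BMP targets, did not move together. *Id2* stood at 152, 139 and 246 CPM in Vcam1ctrl, at 37.2, 43.6 and 97.4 in Vcam1KO1 and at 28.2, 27.8 and 35.0 in Vcam1KO2. *Id3* stood at 48.3, 81.1 and 44.7 CPM in Vcam1ctrl, at 166, 171 and 302 in Vcam1KO1 and at 60.7, 76.8 and 106 in Vcam1KO2. Thus *Id2* was lower in every clone library and *Id3* was higher in every Vcam1KO1 library, with Vcam1KO1 replicate 3 the highest of its group for both.

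*Id2* fell by 1.59 on the log2 scale in Vcam1KO1 (standard error 0.36, adjusted p = 0.0039), or by 2.14 without that replicate, and by 2.56 in Vcam1KO2 (standard error 0.37, adjusted p = 3.4e-04). *Id3* rose by 1.87 in Vcam1KO1 (standard error 0.32, adjusted p = 7.8e-04) and stood at a log2 difference of 0.48 in Vcam1KO2 (standard error 0.31, adjusted p = 0.23). Over both clones it was 1.34 (adjusted p = 0.056, or 0.026 and 0.040 without Vcam1KO2 replicate 1 or 2). *Id1* ranged from 75.2 to 152 CPM in Vcam1ctrl, 48.5 to 125 in Vcam1KO1 and 27.3 to 67.1 in Vcam1KO2, and was called lower in Vcam1KO2, by 1.38 (standard error 0.42, adjusted p = 0.020). That call was lost without control replicate 2 or 3 or Vcam1KO2 replicate 1 or 2 (adjusted p = 0.051 to 0.068), while over both clones *Id1*, at -0.90 (adjusted p = 0.11), passed without Vcam1KO1 replicate 3 (adjusted p = 0.015). *Id4* stood at 0.223, 0.0554 and 0.304 CPM in Vcam1ctrl, at 0.0299, 0.0730 and 0.0160 in Vcam1KO1 and at 0.308, 0.382 and 0.340 in Vcam1KO2, near the limit of detection. Vcam1KO1 overlapped with the control, and its fall by 2.19 (adjusted p = 0.016) lost the call without control replicate 3 or Vcam1KO1 replicate 1 (adjusted p = 0.056 and 0.053), while the log2 fold change was -3.02 without Vcam1KO1 replicate 2. Per length, *Id3* supplied 15.8% ± 4.69 of the summed Id mRNA in Vcam1ctrl, 56.5% ± 4.69 in Vcam1KO1 and 47.1% ± 2.03 in Vcam1KO2, and *Id2* 35.8% ± 9.89, 11% ± 1.40 and 13.4% ± 3.0 (SD, n = 3). The sum itself was 208 ± 46.8 CPM per kb in Vcam1ctrl, 214 ± 89.9 in Vcam1KO1 and 97.0 ± 31.6 in Vcam1KO2. In Vcam1KO2 the larger share of *Id3* was thus a share of a lower sum.

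Of the secreted antagonists, *Grem1* and *Nog* differed widely between the clones. *Grem1*, or gremlin, which binds *Bmp2*, *Bmp4* and *Bmp7*, lies at chr2:113746164-113758646 and stood at 47.4, 112 and 46.1 CPM in Vcam1ctrl and at 129, 125 and 77.7 in Vcam1KO2. In Vcam1KO1 it was all but absent, with 4, 2 and 9 counts in the 3 libraries, or 0.0599, 0.0209 and 0.144 CPM. The log2 fold change was -9.94 in Vcam1KO1 (standard error 0.63, adjusted p = 1.5e-06), or -10.78 without Vcam1KO1 replicate 3, and 0.70 in Vcam1KO2 (standard error 0.38, adjusted p = 0.16). Control replicate 2, with 112 CPM, decided the second value, which was 1.22 without it (adjusted p = 0.011).

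*Nog*, or noggin, was likewise lower in Vcam1KO1 than in Vcam1KO2, but at a low level and with little in Vcam1ctrl. It had 3, 0 and 1 counts in Vcam1ctrl, none in Vcam1KO1 and 22, 33 and 26 in Vcam1KO2. From the summed counts, 81 against 4, its level in Vcam1KO2 was 26.6 times that in Vcam1ctrl (95% exact interval 10.0 to 100.1), and it was at least 8.55-fold higher in Vcam1KO2 than in Vcam1KO1, from a floor of 3 counts per library. Control replicate 1 held 3 of the 4 control counts, and without it the fitted log2 fold change of Vcam1KO2, which depends on the prior count, moved from 4.64 to 5.48 (adjusted p = 0.0020). The fit also called *Nog* lower in Vcam1KO1 than in Vcam1ctrl, but both groups were at or under that floor, so no fold is given, and the call was lost without any library but control replicate 2 (adjusted p = 0.073 to 0.23).

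*Fst*, or follistatin, which binds activins, stood at 3.09, 1.90 and 3.83 CPM in Vcam1ctrl, at 10.1, 12.6 and 7.18 in Vcam1KO1 and at 3.94, 4.09 and 5.87 in Vcam1KO2. It rose by 1.76 on the log2 scale in Vcam1KO1 (standard error 0.31, adjusted p = 9.6e-04) and by a value that missed the threshold in Vcam1KO2, 0.65 (adjusted p = 0.10). Its call over both clones, 1.31 (adjusted p = 0.038), was lost without any one of the control or Vcam1KO1 libraries (adjusted p = 0.052 to 0.15). *Chrd*, or chordin, stood at 7.70 to 11.9 CPM in Vcam1ctrl, 1.98 to 4.69 in Vcam1KO2 and 2.29 to 8.36 in Vcam1KO1, where replicate 3 held the highest value. Its log2 fold change was -1.03 in Vcam1KO1 (adjusted p = 0.10), or -1.82 without that replicate (adjusted p = 0.0031). In Vcam1KO2 it was -1.38 (adjusted p = 0.043), a call lost without any one of the control or Vcam1KO2 libraries (adjusted p = 0.051 to 0.12). Over both clones the log2 fold change of *Chrd* was -1.19 and just missed the threshold (adjusted p = 0.050). There 8 of 16 alternatives made the call, among them limma-voom (-1.36, adjusted p = 0.016) and DESeq2 (-1.24, adjusted p = 0.018).

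**Figure D4:**
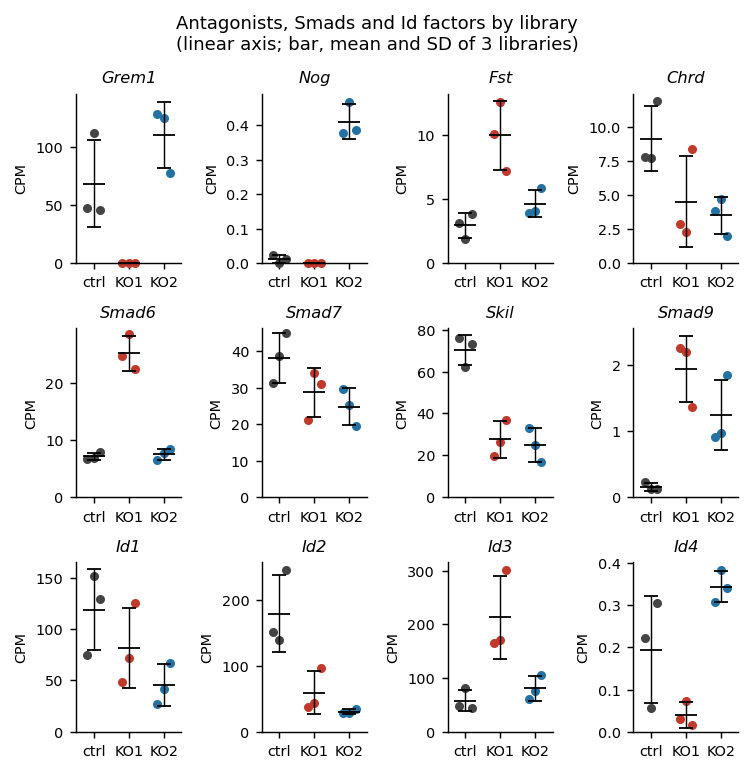
Level in CPM (vertical axis, linear, from 0) of the secreted antagonists, *Smad6*, *Smad7*, *Skil*, *Smad9* and the Id genes in the 3 libraries of each group, with mean and SD. *Grem1* lies near 0 in Vcam1KO1 only, *Nog* lies above 0.3 CPM in Vcam1KO2 only, and *Smad6* lies above 20 CPM in Vcam1KO1 only.

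The latent TGF-beta binding proteins anchor latent TGF-beta to the matrix, except LTBP2, which does not bind it. *Ltbp3* was the most abundant of them per length in every group. It stood at 465, 408 and 576 CPM in Vcam1ctrl, at 1188, 1283 and 2322 in Vcam1KO1 and at 1071, 1041 and 713 in Vcam1KO2. *Ltbp1* stood at 161, 208 and 175 CPM in Vcam1ctrl, at 285, 374 and 163 in Vcam1KO1 and at 594, 611 and 595 in Vcam1KO2. Every clone library was above the control for *Ltbp3*, but for *Ltbp1* Vcam1KO1 replicate 3 lay within it.

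*Ltbp3* rose by 1.73 on the log2 scale in Vcam1KO1 (standard error 0.28, adjusted p = 5.8e-04) and by 0.96 in Vcam1KO2 (standard error 0.28, adjusted p = 0.016), the latter call being lost without control replicate 1 or 2 or Vcam1KO2 replicate 1 or 2 (adjusted p = 0.051 to 0.057). *Ltbp1* rose by 1.73 in Vcam1KO2 (standard error 0.26, adjusted p = 4.1e-04). In Vcam1KO1 its log2 fold change was 0.60 (adjusted p = 0.066), or 0.87 without replicate 3 (adjusted p = 0.0011), and its call over both clones, 1.27 (adjusted p = 0.032), was lost without any one of the control or Vcam1KO2 libraries (adjusted p = 0.052 to 0.11). *Ltbp2* fell from 7.85 to 20.9 CPM to 0.751 to 1.54 in Vcam1KO1 and 1.17 to 1.58 in Vcam1KO2, by 3.43 over both clones (standard error 0.33, adjusted p = 4.8e-05).

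The clones were also compared with each other. Of the 41 members, 9 were higher and 11 lower in Vcam1KO1 than in Vcam1KO2, where 38.7% of all genes were called (20.2% higher and 18.5% lower), and 18 were called without Vcam1KO1 replicate 3. The differences took in all 3 TGF-beta ligands, both expressed activin subunits and all 5 tested type I receptors, whereas none of the 4 type II receptors, 2 co-receptors or 6 receptor Smads and *Smad4* was called by edgeR. Of those, *Smad2* passed without control replicate 2 or 3 (adjusted p = 0.028 and 0.046), with DESeq2 (adjusted p = 0.044) and in the fit of the 6 clone libraries alone (adjusted p = 0.041). *Id2* (0.97, adjusted p = 0.056) and *Ltbp3* (0.76, adjusted p = 0.054) missed the threshold and passed it without Vcam1KO1 replicate 1 (adjusted p = 0.034 and 0.042) or 2 (0.046 and 0.048), and *Id2* also without control replicate 3 (0.049). Both also passed with DESeq2 (adjusted p = 0.028 and 0.029), upper-quartile scaling (0.046 and 0.038), no scaling factors (0.047 and 0.035) and no filter on low counts (0.028 and 0.036). Neither passed with limma-voom (0.097 and 0.059), and for each gene 7 of 16 alternatives made the call. Leaving aside *Nog*, the largest differences were in *Grem1* (-10.64, standard error 0.64, adjusted p = 6.3e-06) and *Bmp2* (-4.88, standard error 0.35, adjusted p = 1.6e-05), a BMP antagonist and a BMP. Against Vcam1ctrl both fell in Vcam1KO1. In Vcam1KO2 *Bmp2* rose (1.55, adjusted p = 0.0019), while *Grem1* was not called (0.70, adjusted p = 0.16).

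Promoter sequences of some members that the results turn on are shown with the letters that Smad complexes are known to recognise. The sequences are from RefSeq (GRCm38.p6), which had an entry for 31 of the 43 members. Each window of 250 bases before and 50 after the start was searched on both strands for GTCTAGAC, a palindromic Smad element, GGCGCC, a GC-rich element, and GTCTG, a shorter Smad box, none of which contains another. GTCTAGAC was in 0.213% of the 32851 windows and in 1 of the 31 members, *Smad6*, where it spans the start. GGCGCC was in 11.9% of all windows and in 10 of the 31, among them *Grem1* and *Id2*, and GTCTG was in 49.6% of all and in 17 of the 31, among them *Tgfb2* and *Id3*. The 250 bases before the start are printed 5′ to 3′ on the gene's strand, with 4 more for *Smad6*, and capitals mark the motif named for each gene, or its reverse complement. The regions are chr1:186705990-186706239 (minus strand) for *Tgfb2*, chr2:113758649-113758898 (minus) for *Grem1*, chr9:64022056-64022309 (minus) for *Smad6*, chr12:25096093-25096342 (minus) for *Id2* and chr4:136143572-136143821 (plus) for *Id3*. Starts are those of RefSeq. In GENCODE vM21 *Id2* (chr12:25093799-25097140) and *Id3* (chr4:136143497-136145755) start further upstream, so that their printed windows lie inside the annotated genes.
Tgfb2: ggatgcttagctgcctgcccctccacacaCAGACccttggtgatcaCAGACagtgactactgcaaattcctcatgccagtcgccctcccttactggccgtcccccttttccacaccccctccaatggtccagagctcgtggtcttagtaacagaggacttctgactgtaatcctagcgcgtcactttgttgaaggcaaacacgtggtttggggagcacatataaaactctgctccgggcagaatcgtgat
Grem1: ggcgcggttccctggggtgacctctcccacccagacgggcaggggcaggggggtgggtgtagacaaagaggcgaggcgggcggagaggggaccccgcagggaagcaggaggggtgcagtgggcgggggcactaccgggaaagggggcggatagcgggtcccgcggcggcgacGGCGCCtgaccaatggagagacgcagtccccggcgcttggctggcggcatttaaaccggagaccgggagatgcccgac
Smad6: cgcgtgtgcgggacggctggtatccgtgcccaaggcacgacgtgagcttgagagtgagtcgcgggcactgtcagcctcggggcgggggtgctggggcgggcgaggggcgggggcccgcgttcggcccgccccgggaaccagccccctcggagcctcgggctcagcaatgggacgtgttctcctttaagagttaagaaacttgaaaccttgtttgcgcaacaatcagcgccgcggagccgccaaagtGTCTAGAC
Id2: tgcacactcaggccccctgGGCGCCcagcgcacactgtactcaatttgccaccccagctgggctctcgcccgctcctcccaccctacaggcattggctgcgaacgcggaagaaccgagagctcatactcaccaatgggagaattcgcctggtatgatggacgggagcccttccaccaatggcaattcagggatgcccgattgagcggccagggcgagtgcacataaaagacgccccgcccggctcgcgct
Id3: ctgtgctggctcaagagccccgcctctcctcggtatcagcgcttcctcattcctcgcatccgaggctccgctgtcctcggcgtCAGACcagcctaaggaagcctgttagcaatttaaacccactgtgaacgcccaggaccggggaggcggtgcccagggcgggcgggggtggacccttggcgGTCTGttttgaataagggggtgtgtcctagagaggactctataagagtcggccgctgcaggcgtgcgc
*Tgfb2* and *Id3* each held the short box at 2 places and the others their motif at 1. *Id2* and *Grem1* share the GC-rich letters and differed in how the clones changed: *Id2* fell in both and *Grem1* in Vcam1KO1. A match describes letters in a window and not a bound site.

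Genes that TGF-beta is known to induce were read from a list of 20 that holds no member. Of the 19 tested, 7 rose and 3 fell over both clones, where 43% of all genes were called. The median log2 fold change was 0.21 beside 0.07 for all genes. *Col1a1*, a chain of type I collagen, rose from 55.0 to 136 CPM in Vcam1ctrl to 7779.7 to 9204 in Vcam1KO1 and 4199 to 5008 in Vcam1KO2, by 6.06 on the log2 scale (standard error 0.48, adjusted p = 1.4e-05). *Tgfbi*, a matrix protein named for its induction by TGF-beta, rose from 7.05 to 11.3 CPM to 127 to 203 and 324 to 366, by 4.88 (standard error 0.49, adjusted p = 5.6e-05). *Acta2*, or alpha-smooth muscle actin, rose by 4.37 (standard error 1.25, adjusted p = 0.019), a call lost without control replicate 1 or 3 (adjusted p = 0.078 and 0.057) and a value of 5.61 without control replicate 2. *Thbs1*, which can activate latent TGF-beta, rose by 2.19 (standard error 0.64, adjusted p = 0.021), a call lost without control replicate 1 or 2 (adjusted p = 0.054 and 0.061). *Col1a1*, *Acta2* and *Col1a2* also stand on the fibroblast marker list, and of the 19 genes 8 rose and 4 fell in Vcam1KO1 while 8 rose and 5 fell in Vcam1KO2, where 59.9% and 51.4% of all genes were called in either direction, so that the count in Vcam1KO1 is near the share of all genes.

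Of 10 tested BMP response genes other than the members, 5 rose and 1 fell over both clones (median 1.32), where 43% of all genes were called. *Atoh8*, a helix-loop-helix factor induced by BMP, rose from 1.02 to 1.11 CPM in Vcam1ctrl to 32.6 to 36.2 in Vcam1KO1 and 9.18 to 18.3 in Vcam1KO2, by 4.46 (standard error 0.59, adjusted p = 3.0e-04). *Runx2*, a factor of bone formation, rose from 21.4 to 23.0 CPM to 53.4 to 88.3 and 45.2 to 57.0, by 1.38 (standard error 0.21, adjusted p = 7.7e-04). In Vcam1KO1 7 of the 10 rose and 2 fell, and in Vcam1KO2 5 rose and 2 fell, again beside 59.9% and 51.4% of all genes. The summed BMP ligand level was lowest in Vcam1KO1, and a link between that level and the response genes was not tested.

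Of 13 tested binding proteins and antagonists, 7 rose over both clones and the other 6 did not pass (median 1.41), with 43% of all genes called. The BMP antagonist *Chrdl1* rose from 0.240 to 0.701 CPM to 175 to 177 in Vcam1KO1 and 27.7 to 46.9 in Vcam1KO2, by 7.89 (standard error 0.98, adjusted p = 2.1e-04). The proteoglycan *Bgn* rose by 6.04 (standard error 0.51, adjusted p = 2.1e-05), the follistatin-like *Fstl1* by 5.31 (standard error 0.36, adjusted p = 5.9e-06) and the secreted protease *Htra1* by 3.36 (standard error 0.25, adjusted p = 9.6e-06). In Vcam1KO1 9 of these 13 rose and 1 fell, and in Vcam1KO2 8 rose, beside 59.9% and 51.4% of all genes called.

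Of 14 tested genes of TGF-beta latency and activation, 7 rose and 2 fell over both clones (median 1.04), where 43% of all genes were called (21.7% higher and 21.2% lower). The genes named here by size of change were all among those that rose. *Lrrc32* (GARP), which tethers latent TGF-beta to the cell surface, rose from 1.74 to 2.78 CPM to 139 to 396 in Vcam1KO1 and 191 to 209.7 in Vcam1KO2, by 6.81 (standard error 0.46, adjusted p = 5.6e-06). *Itgb8*, an integrin subunit that activates TGF-beta, rose by 5.21 (standard error 0.54, adjusted p = 6.5e-05), the microfibril gene *Fbn1* by 3.91 (standard error 0.37, adjusted p = 3.8e-05) and *Emilin1*, which restrains TGF-beta processing, by 3.71 (standard error 0.37, adjusted p = 5.0e-05).

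**Figure D5:**
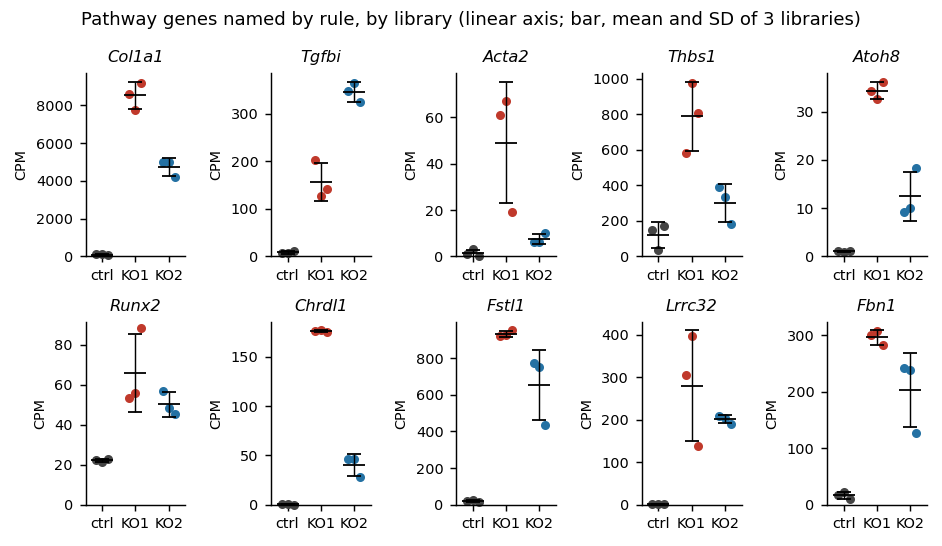
Level in CPM (vertical axis, linear, from 0) of 10 pathway genes that are not members, in the 3 libraries of each group, with mean and SD. The genes were named by a rule that asks for no overlap between clone and control libraries, so their separation is set by that choice.

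Of 8 tested genes on a list of other ligands, which also holds *Bmp1*, 2 rose and 3 fell (median -0.21), where 43% of all genes were called (21.7% higher and 21.2% lower). *Gdf11* rose by 2.78 (standard error 0.31, adjusted p = 9.8e-05), *Bmp1*, a procollagen protease rather than a ligand of this family, rose by 2.65 (standard error 0.19, adjusted p = 6.9e-06) and *Gdf15* fell by 2.01 (standard error 0.28, adjusted p = 4.5e-04). Of 4 tested other receptors and co-receptors 3 rose, among them the BMP co-receptors *Rgma*, by 3.91 (standard error 0.35, adjusted p = 2.9e-05), and *Rgmb*, by 0.94 (standard error 0.20, adjusted p = 0.0049). Of 19 tested intracellular regulators 2 rose and 5 fell (median 0.01), no more than the 43% of all genes called. The ubiquitin ligase *Wwp1* fell by 1.13 (standard error 0.13, adjusted p = 1.4e-04) and the Smad phosphatase *Ppm1a* by 0.76 (standard error 0.12, adjusted p = 8.1e-04), while *Tgfbrap1*, a receptor-associated protein, rose by 0.87 (standard error 0.12, adjusted p = 4.2e-04). *Fkbp1a*, which holds type I receptors inactive, fell by 0.63 (standard error 0.21, adjusted p = 0.033), a call lost without any control library or Vcam1KO1 replicate 1 or 2 (adjusted p = 0.060 to 0.11).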

How the data were processed

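The authors prepared stranded mRNA libraries, 9 in all and 3 per group, and read them from both ends. The authors pseudoaligned the reads with kallisto 0.46.1 to GENCODE transcripts of GRCm38, and the deposited values are estimated counts per gene symbol without normalization. No value needed rounding. Each library was grouped by its title, and replicate numbers only name libraries, in accession order.

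Genes were filtered with filterByExpr, scaled with TMM and tested with edgeR 4.0.16 (R 4.3.3) by the quasi-likelihood test with Benjamini-Hochberg adjustment over all 17672 tested genes, at a threshold of 0.05. Vcam1KO against Vcam1ctrl used 6 against 3 libraries and 1 mean for both clones, whose differences from each other then widen the error. The other comparisons used 1 fit with 3 groups. Standard errors are the log2 fold change over the root of F. Lengths are merged exons of GENCODE vM21, which is not the release used for quantification. A count of 3 per library was the floor. The exact intervals of *Bmp5* and *Nog* cover counting error only. The interval of *Smad2* is built from the standard error of the fit by a normal approximation, and so takes in the spread between libraries. Library totals of 53415907 to 125223073 counts make the spread between libraries, not counting, the limit for most members.

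The members and lists were chosen with earlier results of these data known. All 43 members are reported. From each pathway list up to 4 genes are named, those with the largest change over both clones among called genes that averaged 5 CPM or more and whose clone and control libraries did not overlap. Alternatives were limma-voom (limma 3.58.1, the study's own test), DESeq2 1.42.0, upper-quartile scaling, no scaling factors, other filters, the mean of both clone contrasts, fits on 6 libraries, longest-transcript lengths and omission of single libraries. The model was tested on simulated data of 17195 genes, where 150 of 200 genes changed by 2-fold were called in the right direction between Vcam1KO and Vcam1ctrl, with 8 calls among the unchanged genes. The simulation made the clones alike and gave every gene the same dispersion, whereas 38.7% of all genes were called between the real clones. Its error rates therefore do not carry over to these data.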

Additional observations from a re-analysis of the deposited data

Results flagged for a closer look

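The change from Vcam1ctrl differed between the clones, by the test of Vcam1KO1 against Vcam1KO2, for 20 members. Expressed as the log2 level in Vcam1KO1 minus that in Vcam1KO2, the ligands gave -0.46 for *Tgfb1*, 1.46 for *Tgfb2*, 1.21 for *Tgfb3*, -1.26 for *Inhba*, -1.04 for *Inhbb*, -4.88 for *Bmp2*, -4.04 for *Bmp5* and 2.65 for *Bmp6*. The type I receptors gave -0.71 for *Tgfbr1*, 0.35 for *Bmpr1a*, -0.78 for *Acvr1*, 0.72 for *Acvr1b* and 1.58 for *Acvrl1*. The inhibitors and outputs gave 1.73 for *Smad6*, 1.39 for *Id3* and -2.96 for *Id4*, the antagonists -10.64 for *Grem1* and 1.11 for *Fst*, and *Ltbp1* gave -1.13. *Nog*, without a count in Vcam1KO1, was at least 8.55-fold higher in Vcam1KO2.

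Leaving out 1 library ended the call for *Tgfb1* (without Vcam1KO2 replicate 2, adjusted p = 0.052), *Tgfbr1* (Vcam1KO2 replicate 1 or 2, 0.077 and 0.053), *Acvr1b* (Vcam1KO1 replicate 1 or Vcam1KO2 replicate 1, 0.055 and 0.062), *Acvrl1* (Vcam1KO1 replicate 1 or Vcam1KO2 replicate 3, 0.054 and 0.058), *Inhbb* (Vcam1KO1 replicate 1 or 3 or Vcam1KO2 replicate 1 or 2, 0.058 to 0.074), *Fst* (Vcam1KO1 replicate 1 or 2 or Vcam1KO2 replicate 1 or 2, 0.059 to 0.088) and *Bmpr1a* (each library but Vcam1KO2 replicate 1, 0.058 to 0.18). *Grem1* moved to -11.48 without Vcam1KO1 replicate 3 and *Id4* to -3.80 without Vcam1KO1 replicate 2.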

How the results depend on the processing

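The number of members called was 28 of 41 between Vcam1KO and Vcam1ctrl, and 22 to 30 when 1 library was left out. It was 24 to 35 under the other alternatives, lowest with no filter on low counts and highest with the average of the clones' contrasts. For Vcam1KO1, Vcam1KO2 and the clones against each other, the main counts of 33, 33 and 20 became 31 to 35, 25 to 34 and 15 to 21 without 1 library, and 30 to 33, 30 to 33 and 17 to 23 under the other alternatives. No count moved by over 1.5 times. *Bmp2* over both clones was the 1 value to change sign with a call, from 0.60 to -0.89 (adjusted p = 0.013) with the average of the clones' contrasts, the clones having gone opposite ways. Of 1030 recomputed values of single genes over both clones, 44 lost and 21 gained the call. In Vcam1KO1 13 of 649 lost and 6 gained it, in Vcam1KO2 46 of 652 and 3, and between the clones 25 of 651 and 18. With the length of the longest transcript, 50 of 129 levels per length moved by more than 1 SD. No paired analysis was possible because the labels give no replicate numbers that groups share. Where 3 libraries represent 1 clone, precision covers that clone's passages only.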
